A study of Homo sapiens with 14 samples.

Results

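The genes described here are 48 genes of mitosis and the spindle, chosen by name for their roles in cell division: cyclins and their kinase, mitotic kinases, the spindle checkpoint, anaphase control, kinetochores, spindle assembly, kinesins, cytokinesis and chromosome structure. This list and the further gene lists below were drawn up with earlier results of these data known. Their counts beside the shares of all genes therefore describe the lists and are no independent test. A probe set was kept only where the probe table gave it 1 gene, and each gene was read from its brightest probe set. On this basis 47 of the 48 genes had a value, out of 18129 genes on the array, and all 47 were bright enough to be among the 10877 genes tested. The exception was PTTG1, the securin that holds separase inactive, because its probe set also names the related PTTG3P.

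The arrays were made from PANC-1, an established line derived from a human pancreatic carcinoma, so every group is 1 cell line in culture. Cells in medium with 10% serum were moved to 1% serum for 24 h before 48 h of treatment, and 200 ng of RNA per sample was labelled. Of the 4 groups, 3 received the cytokine TGFb1 at 5 ng/ml: 3 arrays with TGFb1 and sodium valproate at 2 mM, 3 arrays with TGFb1 and acriflavine at 2.5 µM, and 4 arrays with TGFb1 alone. The fourth group was 4 control arrays of untreated cells. Cells given acriflavine without TGFb1 were not analysed here, and each inhibitor was therefore compared on the cytokine background only.

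TGFb1 is a cytokine known for driving epithelial cells toward a mesenchymal state and, in many epithelia, for restraining growth. Valproate is a short-chain fatty acid drug that inhibits histone deacetylases, and acriflavine combines acridine dyes, which bind nucleic acids. Genes of mitosis are transcribed mainly in the G2 and M phases of the cell cycle. In resting cells the DREAM complex holds them down through its component LIN54, which binds short promoter elements called CHR (cell cycle genes homology region), and in dividing cells B-MYB, FOXM1 and the CCAAT-binding factor NF-Y turn them on. Their RNA therefore follows how many cells of a culture are on their way into division. In RNA from whole cultures, fewer cells in those phases and less RNA per cell cannot be told apart.

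The promoter elements of this system are short enough to be read from the sequence, and because the genes moved together in the arrays the promoters are shown first. RefSeq promoters on GRCh38.p14, each with 250 bases before and 50 bases after an annotated start, were at hand for 41 of the 48 genes. The other 7 were FOXM1, AURKA, TTK, UBE2C, BIRC5, TPX2 and RACGAP1. CCAAT, read on both strands, was in 34 of the 41 promoters (82.9%), against 35.7% of the 27305 promoters in the table. TTTGAA, the usual core of a CHR, was in 29 (70.7%), against 15.4% of all promoters. Its variant TTCGAA, also read on both strands, was in 4 (9.76%), against 1.45% of all promoters. CCAAT together with either of the 6-base motifs was in 27 of 41 (65.9%), against 6.58% of all promoters. The genes had been chosen for their roles and many are known targets of these factors, so the counts describe the set and are no test.

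A stretch of 180 bases, 150 before to 30 after the start, is printed for 7 genes. They were picked by their motifs and their change with valproate, and so do not show a link between these. CDCA8, OIP5, CCNB2 and CDCA3 fell most with valproate among the genes whose promoter holds both kinds of motif. Genes with a 6-base motif alone, such as NUF2 and NDC80, are not printed. KIF20A had the largest fall over all arrays and holds CCAAT alone. KIF2C, which also fell among the most, and CENPE, which did not pass the test, hold none of the motifs searched for. Other forms of these elements were not searched for. CDCA8 lies at chr1:37692366-37692545 on the plus strand, OIP5 at chr15:41332562-41332741 on the minus strand, CCNB2 at chr15:59104996-59105175 on the plus strand, CDCA3 at chr12:6851257-6851436 on the minus strand, KIF20A at chr5:138178962-138179141 on the plus strand, KIF2C at chr1:44739687-44739866 on the plus strand and CENPE at chr4:103198314-103198493 on the minus strand. The sequences run 5′ to 3′ along the gene, and capitals mark the motifs on either strand, where CCAAT read from the opposite strand appears as ATTGG. In CDCA8 a 6-base motif overlaps a CCAAT of the opposite strand, so that both appear as 1 run of capitals.
CDCA8: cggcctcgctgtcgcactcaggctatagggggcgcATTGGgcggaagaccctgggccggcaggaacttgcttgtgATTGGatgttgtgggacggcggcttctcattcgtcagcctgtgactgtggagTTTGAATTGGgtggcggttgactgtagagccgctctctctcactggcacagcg
OIP5: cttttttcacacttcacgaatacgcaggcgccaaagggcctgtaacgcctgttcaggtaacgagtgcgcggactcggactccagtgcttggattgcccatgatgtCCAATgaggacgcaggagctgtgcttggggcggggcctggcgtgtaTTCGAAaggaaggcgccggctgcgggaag
CCNB2: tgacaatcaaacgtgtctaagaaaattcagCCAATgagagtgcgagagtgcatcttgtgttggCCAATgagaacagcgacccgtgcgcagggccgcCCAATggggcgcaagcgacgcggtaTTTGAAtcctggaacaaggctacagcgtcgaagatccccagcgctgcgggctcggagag
CDCA3: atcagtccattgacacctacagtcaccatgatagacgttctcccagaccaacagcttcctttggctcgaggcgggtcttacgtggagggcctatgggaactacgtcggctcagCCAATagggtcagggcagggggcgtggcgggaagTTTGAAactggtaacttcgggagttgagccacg
KIF20A: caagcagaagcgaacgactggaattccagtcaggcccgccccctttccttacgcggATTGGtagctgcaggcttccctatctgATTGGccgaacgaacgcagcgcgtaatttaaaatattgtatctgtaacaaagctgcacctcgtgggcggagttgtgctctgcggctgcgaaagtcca
KIF2C: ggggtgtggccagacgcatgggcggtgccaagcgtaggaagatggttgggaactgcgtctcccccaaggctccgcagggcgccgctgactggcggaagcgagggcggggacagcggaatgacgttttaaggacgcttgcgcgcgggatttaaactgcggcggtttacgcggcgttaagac
CENPE: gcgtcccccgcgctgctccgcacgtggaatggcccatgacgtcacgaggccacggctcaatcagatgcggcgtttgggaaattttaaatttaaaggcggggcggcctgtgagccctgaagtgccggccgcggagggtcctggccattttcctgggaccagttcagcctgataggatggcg
In CCNB2, CCAAT stood 3 times ahead of the TTTGAA in the printed stretch. In the 41 promoters there were 72 matches to CCAAT, and 48 of them began 40 to 130 bases before the start. There were 41 matches to the 6-base motifs, and 27 of them, in 24 genes, began between 50 bases before and 20 bases after the start. Matching letters are a description and do not show that a factor binds there.

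**Figure D1:**
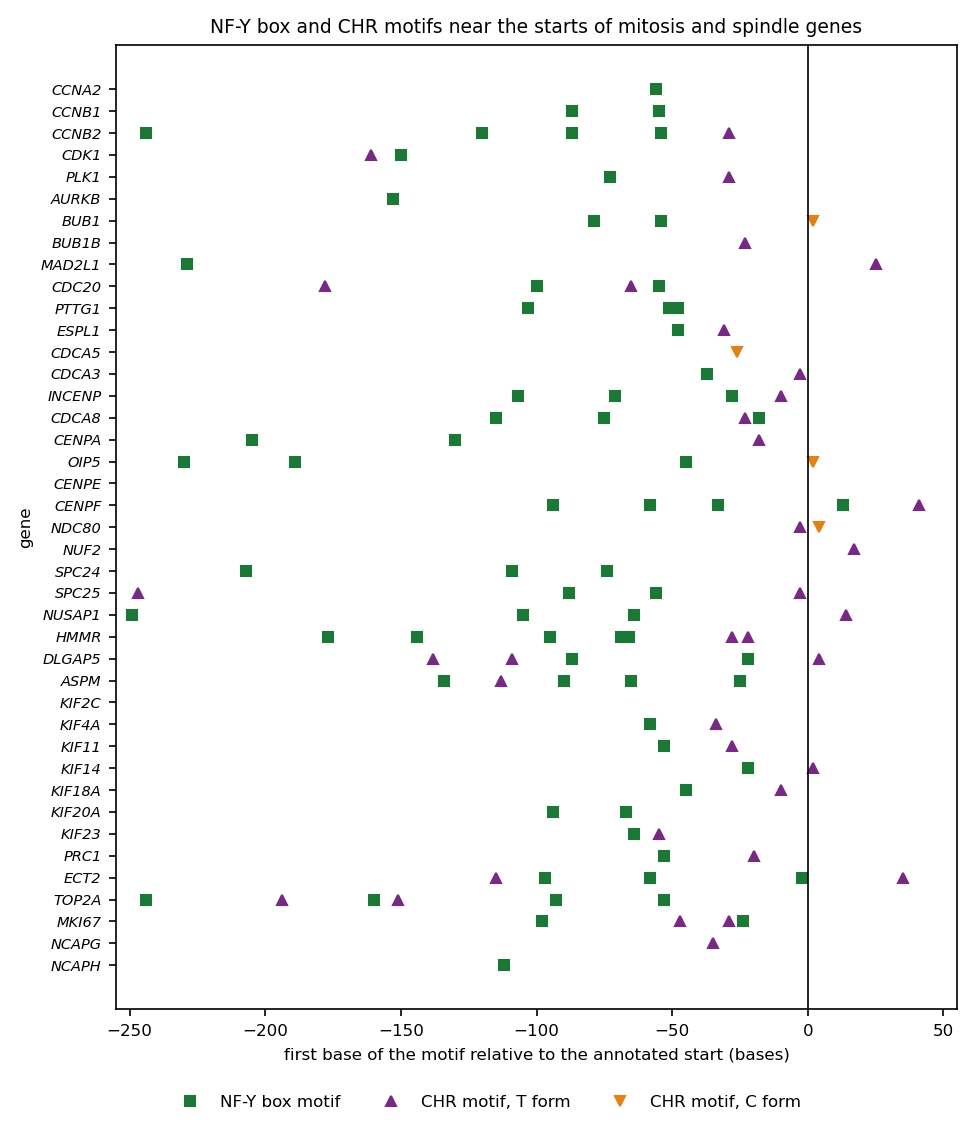
Positions of CCAAT (green squares, labelled as the NF-Y box), TTTGAA (purple triangles, T form of the CHR motif) and TTCGAA (orange triangles, C form) in the promoters of 41 mitosis and spindle genes, 1 row per gene, with the distance of the first base of the motif from the annotated start on the horizontal axis, in bases. Of the 6-base matches, 27 of 41 lie between 50 bases before and 20 bases after the start, and of the CCAAT matches 48 of 72 lie 40 to 130 bases before it.

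Values are log2 intensities, and a change is the difference of 2 group means in log2 units ± its standard error (SE) from limma. A change passed, as a rise or a fall, at an adjusted p (Benjamini-Hochberg over 10877 genes) below 0.05. Array medians lay between 7.16 and 7.21. TGFb1 replicate 4 stood apart: the standard deviation (SD) of its deviation from its group mean was 0.375 over all genes, against 0.256 for TGFb1 replicate 2, 0.250 for control replicate 4 and 0.0665 to 0.160 for the other 11 arrays. Of 5 carcinoma markers all were bright enough to be tested, with the lowest array at 8.22 (KRT7). None of 4 leukocyte and 4 endothelial markers reached the brightness limit of 6.89 on its mean, though ITGAM reached 7.32 and KDR 7.06 in an array. Of 4 hepatocyte markers APOA1 and TTR passed the limit, of 3 acinar markers PRSS1, and of 5 fibroblast and stellate cell markers COL1A1 (7.85 to 12.8 over the arrays) and COL3A1 (5.63 to 8.30). Their part in the results was not tested. Precision is limited by how many arrays each group has.

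The mitosis genes stood high in TGFb1 replicate 4. In 41 of 47 genes replicate 4 was above all of TGFb1 replicates 1 to 3, against 40.3% of all genes, and in 1 gene, PLK1, it was below them. Its distance from the mean of replicates 1 to 3 had a median of 0.75, against 0.01 over all genes. The mean of the 47 genes was 10.67 in TGFb1 replicate 4 and 9.92 to 9.95 in TGFb1 replicates 1 to 3. Counts of changed genes that use the TGFb1 group are therefore given with and without replicate 4, and single values are over all arrays unless stated. Both inhibitor groups have replicates 1 to 3 only, so the values without TGFb1 replicate 4 are also the comparison within those replicates.

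With valproate, the genes of mitosis fell nearly as one. Against TGFb1 alone, 45 of 47 genes fell, 0 rose and 2 did not pass, and the median change was -1.25, a level 2.39-fold lower. Among all genes tested, 16.2% fell, 15.1% rose and the median change was -0.01. In 39 genes the fall was 2-fold or more. In 44 genes every valproate array lay below every TGFb1 array, against 17.9% of all genes. Without TGFb1 replicate 4 the same 45 genes fell, against 20.1% of all genes, and the median change was -1.05, with 26 genes at 2-fold or more. The share of all genes at 2-fold or more was not computed, so both 2-fold counts describe these genes only. Valproate replicates still lay below every one of TGFb1 replicates 1 to 3 in 44 genes, against 26.7% of all genes. In all 47 genes the TGFb1 with valproate group had the lowest mean of the 4 groups, a count for which the share of all genes was not computed.

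**Figure D2:**
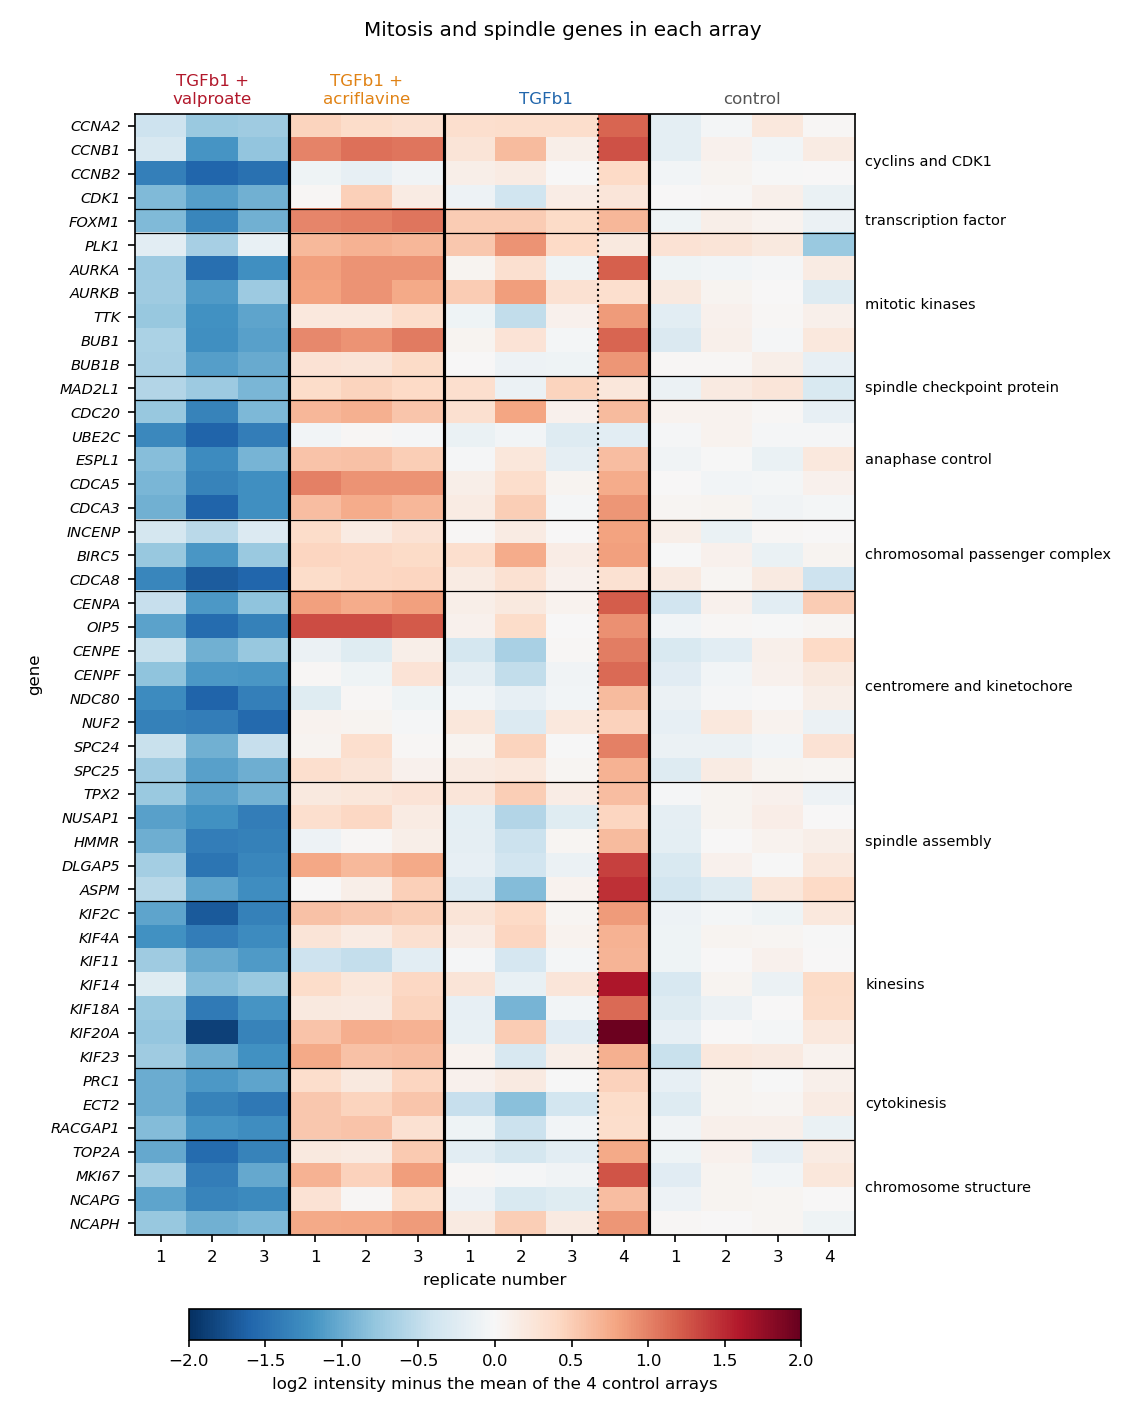
Heat map of 47 mitosis and spindle genes (rows, grouped by role) in 14 arrays (columns, by group, with TGFb1 replicate 4 set off by a dotted line). Colour is the log2 intensity minus the mean of the 4 control arrays, blue for lower and red for higher. The 3 valproate columns are blue in nearly every row, at a median change of -1.03 against control, and TGFb1 replicate 4 is redder than TGFb1 replicates 1 to 3 in 41 of 47 rows.

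Cyclins and their kinase come first in the order of the cycle, and all 4 fell with valproate. CCNA2, cyclin A2, which acts in S and G2 phases, read 8.59, 8.25 and 8.29 in the valproate arrays, 9.45, 9.36 and 9.32 in the acriflavine arrays, 9.34, 9.36 and 9.36 in TGFb1 replicates 1 to 3 with 10.17 in TGFb1 replicate 4, and 8.80, 8.96, 9.21 and 9.03 in the control arrays. Every valproate array was below every other array, and TGFb1 replicate 4 was far above the 3 other TGFb1 arrays, which were nearly equal. The change with valproate was -1.18 ± 0.178 (adjusted p = 0.000209), and -0.98 ± 0.107 (adjusted p = 1.08e-05) without replicate 4. CCNB1, cyclin B1, which drives entry into mitosis with CDK1, read 10.44, 9.57 and 9.97 in the valproate arrays, 11.75, 11.86 and 11.83 in the acriflavine arrays, 11.02, 11.40 and 10.87 in TGFb1 replicates 1 to 3 with 12.03 in TGFb1 replicate 4, and 10.56, 10.85, 10.70 and 10.93 in the control arrays. The valproate arrays were again the lowest, the acriflavine arrays lay above TGFb1 replicates 1 to 3, and replicate 4 was above both. Its change with valproate was -1.34 ± 0.239 (adjusted p = 0.000803). CCNB2, cyclin B2, read 9.29, 9.07 and 9.17 in the valproate arrays, 10.56, 10.49 and 10.59 in the acriflavine arrays, 10.77, 10.82 and 10.66 in TGFb1 replicates 1 to 3 with 11.05 in TGFb1 replicate 4, and 10.60, 10.71, 10.65 and 10.66 in the control arrays. Here the acriflavine arrays lay just below every TGFb1 array and every control array, while the valproate arrays lay far below all of them (-1.65 ± 0.0910, adjusted p = 9.98e-08). CDK1, the kinase that these cyclins activate, read 10.33, 10.11 and 10.25 in the valproate arrays, 11.24, 11.69 and 11.38 in the acriflavine arrays, 11.11, 10.81 and 11.37 in TGFb1 replicates 1 to 3 with 11.45 in TGFb1 replicate 4, and 11.22, 11.24, 11.32 and 11.08 in the control arrays. The other 3 groups overlapped, and the valproate arrays stood below them (-0.96 ± 0.144, adjusted p = 0.000216).

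FOXM1, the transcription factor that switches on many of the genes described here, read 7.75, 7.32 and 7.66 in the valproate arrays, 9.61, 9.64 and 9.70 in the acriflavine arrays, 9.14, 9.14 and 9.01 in TGFb1 replicates 1 to 3 with 9.28 in TGFb1 replicate 4, and 8.54, 8.75, 8.70 and 8.51 in the control arrays. The 4 groups did not overlap, with valproate lowest, then control, then TGFb1, then acriflavine, and replicate 4 stayed close to its group. FOXM1 fell 2.97-fold with valproate (-1.57 ± 0.106, adjusted p = 4.38e-07) and the value hardly depended on replicate 4 (-1.52 ± 0.106 without it).

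All 6 mitotic kinases fell with valproate, with changes between -1.52 for AURKA and -0.85 for PLK1. PLK1, polo-like kinase 1, which acts at centrosomes, kinetochores and the cleavage plane, read 8.32, 7.87 and 8.38 in the valproate arrays, 9.19, 9.23 and 9.21 in the acriflavine arrays, 9.07, 9.43 and 8.93 in TGFb1 replicates 1 to 3 with 8.73 in TGFb1 replicate 4, and 8.82, 8.79, 8.73 and 7.80 in the control arrays. It was the gene whose TGFb1 replicate 4 lay below its group, and control replicate 4 was lower still, below even the valproate arrays. The valproate arrays were below all TGFb1 arrays (-0.85 ± 0.229, adjusted p = 0.0116). AURKA, the centrosomal Aurora kinase, read 9.94, 9.16 and 9.43 in the valproate arrays, 11.48, 11.56 and 11.57 in the acriflavine arrays, 10.72, 10.98 and 10.57 in TGFb1 replicates 1 to 3 with 11.86 in TGFb1 replicate 4, and 10.57, 10.62, 10.64 and 10.82 in the control arrays. Groups did not overlap between valproate and the rest, and the acriflavine arrays lay between TGFb1 replicates 1 to 3 and replicate 4. Its change with valproate was -1.52 ± 0.247 (adjusted p = 0.000381), and -1.25 ± 0.159 without replicate 4. AURKB, the Aurora kinase of the chromosomal passenger complex, read 8.75, 8.34 and 8.74 in the valproate arrays, 10.27, 10.36 and 10.22 in the acriflavine arrays, 9.97, 10.30 and 9.77 in TGFb1 replicates 1 to 3 with 9.80 in TGFb1 replicate 4, and 9.67, 9.52, 9.47 and 9.21 in the control arrays. Control arrays lay below TGFb1 arrays and above valproate arrays without overlap, and replicate 4 was among the lower TGFb1 arrays (-1.35 ± 0.144 with valproate, adjusted p = 1.31e-05). BUB1, a kinase of the spindle checkpoint, read 9.21, 8.61 and 8.75 in the valproate arrays, 10.80, 10.73 and 10.87 in the acriflavine arrays, 9.89, 10.10 and 9.80 in TGFb1 replicates 1 to 3 with 11.01 in TGFb1 replicate 4, and 9.54, 9.94, 9.82 and 10.04 in the control arrays. Acriflavine arrays and TGFb1 replicate 4 stood together above the rest, and valproate arrays below it (-1.34 ± 0.240 with valproate, adjusted p = 0.000783). The checkpoint kinases TTK and BUB1B fell by 1.10 each.

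MAD2L1, the checkpoint protein that holds back the anaphase-promoting complex, read 10.82, 10.68 and 10.49 in the valproate arrays, 11.77, 11.85 and 11.80 in the acriflavine arrays, 11.74, 11.29 and 11.85 in TGFb1 replicates 1 to 3 with 11.63 in TGFb1 replicate 4, and 11.29, 11.58, 11.65 and 11.10 in the control arrays. Replicate 4 lay within its group here, and the change with valproate was -0.96 ± 0.147 (adjusted p = 0.000232) with that array and -0.96 without it.

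Anaphase is set off by the anaphase-promoting complex, which leads to the release of separase, the protease that cuts cohesin, and all 5 genes of this group with a value fell. CDC20, the activator of the complex, read 10.10, 9.52 and 9.96 in the valproate arrays, 11.52, 11.58 and 11.41 in the acriflavine arrays, 11.18, 11.64 and 10.95 in TGFb1 replicates 1 to 3 with 11.48 in TGFb1 replicate 4, and 10.93, 10.93, 10.89 and 10.69 in the control arrays. Control arrays lay below all TGFb1 arrays and valproate arrays below those, and the change with valproate was -1.46 ± 0.161 (adjusted p = 1.81e-05). ESPL1, separase itself, read 8.09, 7.69 and 8.02 in the valproate arrays, 9.52, 9.53 and 9.44 in the acriflavine arrays, 8.93, 9.18 and 8.78 in TGFb1 replicates 1 to 3 with 9.56 in TGFb1 replicate 4, and 8.88, 8.94, 8.82 and 9.16 in the control arrays. Its acriflavine arrays lay between TGFb1 replicates 1 to 3 and replicate 4 (-1.18 ± 0.159 with valproate, adjusted p = 9.01e-05). CDCA5, sororin, which protects cohesin until anaphase, read 9.64, 9.22 and 9.34 in the valproate arrays, 11.57, 11.45 and 11.46 in the acriflavine arrays, 10.67, 10.91 and 10.61 in TGFb1 replicates 1 to 3 with 11.30 in TGFb1 replicate 4, and 10.56, 10.51, 10.51 and 10.64 in the control arrays. Acriflavine arrays were above every TGFb1 array and valproate arrays below every array of the other groups (-1.47 ± 0.145 with valproate, adjusted p = 7.49e-06). UBE2C, the ubiquitin-conjugating enzyme of the complex, changed by -1.26 ± 0.0824. CDCA3, a trigger of mitotic entry, changed by -1.64 ± 0.182.

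The chromosomal passenger complex corrects faulty attachments and steers cytokinesis, and its 3 non-kinase genes fell by unequal amounts. CDCA8, borealin, read 9.08, 8.73 and 8.79 in the valproate arrays, 10.76, 10.80 and 10.82 in the acriflavine arrays, 10.54, 10.69 and 10.47 in TGFb1 replicates 1 to 3 with 10.68 in TGFb1 replicate 4, and 10.57, 10.43, 10.56 and 9.97 in the control arrays. Valproate arrays were more than a log2 unit below the others except for control replicate 4, the lowest of the control arrays, and the change of -1.73 ± 0.134 (adjusted p = 1.13e-06) was -1.70 without TGFb1 replicate 4. BIRC5, survivin, read 10.01, 9.60 and 10.02 in the valproate arrays, 11.19, 11.18 and 11.15 in the acriflavine arrays, 11.11, 11.50 and 10.91 in TGFb1 replicates 1 to 3 with 11.59 in TGFb1 replicate 4, and 10.75, 10.85, 10.64 and 10.82 in the control arrays. Acriflavine arrays lay within the range of the TGFb1 arrays and control arrays just below it (-1.40 ± 0.150 with valproate, adjusted p = 1.39e-05). INCENP, the scaffold of the complex, read 7.33, 7.14 and 7.41 in the valproate arrays, 8.05, 7.84 and 7.98 in the acriflavine arrays, 7.71, 7.85 and 7.69 in TGFb1 replicates 1 to 3 with 8.48 in TGFb1 replicate 4, and 7.80, 7.55, 7.70 and 7.69 in the control arrays. Valproate arrays were lowest by a small margin, and the change of -0.64 ± 0.159 (adjusted p = 0.00727) was the smallest of the 47 over all arrays.

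Of 8 genes of the centromere and kinetochore, the structures that join chromosomes to the spindle, 7 fell with valproate. CENPA, the histone H3 variant that marks centromeres, read 10.36, 9.67 and 10.0 in the valproate arrays, 11.63, 11.55 and 11.63 in the acriflavine arrays, 10.94, 11.01 and 10.88 in TGFb1 replicates 1 to 3 with 12.02 in TGFb1 replicate 4, and 10.43, 10.90, 10.59 and 11.32 in the control arrays. Valproate arrays were lowest and TGFb1 replicate 4 highest of all (-1.20 ± 0.266 with valproate, adjusted p = 0.0036). OIP5, a subunit of the complex that readies centromeres for CENPA, read 9.14, 8.67 and 8.87 in the valproate arrays, 11.51, 11.52 and 11.45 in the acriflavine arrays, 10.30, 10.59 and 10.22 in TGFb1 replicates 1 to 3 with 11.13 in TGFb1 replicate 4, and 10.16, 10.23, 10.20 and 10.26 in the control arrays. Valproate, control and acriflavine arrays did not overlap, and acriflavine arrays lay above even TGFb1 replicate 4 (-1.66 ± 0.174 with valproate, adjusted p = 1.16e-05). CENPF, a kinetochore and nuclear matrix protein, read 8.68, 8.33 and 8.31 in the valproate arrays, 9.50, 9.40 and 9.75 in the acriflavine arrays, 9.30, 8.98 and 9.41 in TGFb1 replicates 1 to 3 with 10.61 in TGFb1 replicate 4, and 9.25, 9.42, 9.57 and 9.68 in the control arrays. Apart from replicate 4, the TGFb1, acriflavine and control arrays overlapped, and valproate arrays lay below them (-1.13 ± 0.282, adjusted p = 0.00731). NDC80, the subunit of the NDC80 complex that grips microtubules, read 8.61, 8.26 and 8.49 in the valproate arrays, 9.63, 9.89 and 9.78 in the acriflavine arrays, 9.81, 9.69 and 9.81 in TGFb1 replicates 1 to 3 with 10.49 in TGFb1 replicate 4, and 9.75, 9.85, 9.87 and 9.98 in the control arrays. Only the valproate arrays and replicate 4 stood off from the others (-1.50 ± 0.161 with valproate, adjusted p = 1.39e-05). NUF2, its partner in the complex, read 7.78, 7.74 and 7.57 in the valproate arrays, 9.20, 9.18 and 9.10 in the acriflavine arrays, 9.35, 8.86 and 9.33 in TGFb1 replicates 1 to 3 with 9.58 in TGFb1 replicate 4, and 8.95, 9.34, 9.20 and 9.0 in the control arrays. Its valproate arrays lay more than a log2 unit below the rest (-1.58 ± 0.143, adjusted p = 3.85e-06), and the other 3 groups overlapped. SPC24 and SPC25, the inner subunits of the same complex, changed by -1.0 and -1.20. CENPE, a kinetochore motor, read 8.0, 7.48 and 7.70 in the valproate arrays, 8.33, 8.21 and 8.57 in the acriflavine arrays, 8.09, 7.81 and 8.47 in TGFb1 replicates 1 to 3 with 9.48 in TGFb1 replicate 4, and 8.15, 8.25, 8.55 and 8.85 in the control arrays. Its valproate arrays overlapped TGFb1 replicates 1 to 3, and the change of -0.74 ± 0.306 did not pass (adjusted p = 0.0853). Without replicate 4 it was -0.40 (adjusted p = 0.128).

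Among 5 genes of spindle assembly, 4 fell. TPX2, which activates AURKA and seeds microtubules, read 11.08, 10.75 and 10.88 in the valproate arrays, 12.03, 12.05 and 12.10 in the acriflavine arrays, 12.06, 12.31 and 11.97 in TGFb1 replicates 1 to 3 with 12.44 in TGFb1 replicate 4, and 11.80, 11.88, 11.91 and 11.72 in the control arrays. Valproate arrays were lowest and control arrays lay below all TGFb1 and acriflavine arrays (-1.29 ± 0.113 with valproate, adjusted p = 3e-06). NUSAP1, which bundles spindle microtubules, HMMR, a centrosomal spindle protein, and DLGAP5, which stabilises kinetochore fibres, changed by -1.09, -1.25 and -1.32. ASPM, a spindle pole protein, read 8.28, 7.78 and 7.59 in the valproate arrays, 8.84, 8.95 and 9.32 in the acriflavine arrays, 8.55, 7.96 and 8.91 in TGFb1 replicates 1 to 3 with 10.29 in TGFb1 replicate 4, and 8.46, 8.58, 9.06 and 9.24 in the control arrays. TGFb1 replicate 2 lay among the valproate arrays and replicate 4 far above every other array, and the change of -1.04 ± 0.404 did not pass (adjusted p = 0.0654). It was -0.59 without replicate 4 (adjusted p = 0.0809).

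All 7 kinesins, motors that move or dismantle microtubules, fell with valproate. KIF20A, a motor of the central spindle, read 7.43, 6.34 and 6.88 in the valproate arrays, 8.77, 8.94 and 8.90 in the acriflavine arrays, 8.06, 8.72 and 7.99 in TGFb1 replicates 1 to 3 with 10.17 in TGFb1 replicate 4, and 8.04, 8.21, 8.17 and 8.42 in the control arrays. The valproate arrays were lowest, and replicate 4 was more than a log2 unit above every other array. The change of -1.85 ± 0.406 (adjusted p = 0.00336) was the largest of the 47 over all arrays. Without replicate 4 it was -1.37 ± 0.230 (adjusted p = 0.000359), and CDCA8 had the largest change (-1.70). KIF2C, a depolymerase that frees faulty attachments, read 9.36, 8.74 and 9.07 in the valproate arrays, 11.01, 10.96 and 10.91 in the acriflavine arrays, 10.68, 10.82 and 10.46 in TGFb1 replicates 1 to 3 with 11.27 in TGFb1 replicate 4, and 10.32, 10.39, 10.34 and 10.63 in the control arrays. Valproate arrays lay nearly a log2 unit or more below all others (-1.75 ± 0.173, adjusted p = 7.49e-06). KIF11, the motor that pushes spindle poles apart, read 9.80, 9.52 and 9.38 in the valproate arrays, 10.10, 10.04 and 10.32 in the acriflavine arrays, 10.50, 10.18 and 10.48 in TGFb1 replicates 1 to 3 with 11.20 in TGFb1 replicate 4, and 10.43, 10.53, 10.60 and 10.52 in the control arrays. Its acriflavine arrays lay below every control array, and its valproate arrays below those (-1.02 ± 0.184 with valproate, adjusted p = 0.00083). KIF4A, KIF14, KIF18A and KIF23 changed by -1.62, -1.10, -1.11 and -1.11. Without replicate 4 the changes of KIF14 and KIF18A were -0.73 and -0.73, and both still passed. Of these genes, KIF18A, a motor that aligns chromosomes, had a TGFb1 array within the valproate range, the only gene that passed while its arrays overlapped.

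The genes of cytokinesis and of chromosome structure, 3 and 4 in number, all fell. PRC1, which bundles the microtubules of the central spindle, read 10.73, 10.57 and 10.68 in the valproate arrays, 12.08, 11.93 and 12.15 in the acriflavine arrays, 11.82, 11.90 and 11.72 in TGFb1 replicates 1 to 3 with 12.19 in TGFb1 replicate 4, and 11.57, 11.78, 11.73 and 11.83 in the control arrays. Its valproate arrays were the closest to each other in the whole set, and all lay below the rest (-1.25 ± 0.109, adjusted p = 2.94e-06). ECT2, the exchange factor that turns on RhoA for the cleavage furrow, read 9.73, 9.38 and 9.29 in the valproate arrays, 11.26, 11.16 and 11.28 in the acriflavine arrays, 10.25, 9.89 and 10.35 in TGFb1 replicates 1 to 3 with 11.08 in TGFb1 replicate 4, and 10.45, 10.77, 10.76 and 10.89 in the control arrays. TGFb1 replicates 1 to 3 were below the control arrays, and the acriflavine arrays above all others (-0.93 ± 0.212 with valproate, adjusted p = 0.00441). MKI67, the proliferation antigen Ki-67 that coats mitotic chromosomes, read 8.87, 8.18 and 8.54 in the valproate arrays, 10.26, 10.03 and 10.39 in the acriflavine arrays, 9.59, 9.54 and 9.49 in TGFb1 replicates 1 to 3 with 10.82 in TGFb1 replicate 4, and 9.33, 9.62, 9.50 and 9.78 in the control arrays. Valproate arrays were lowest, acriflavine arrays lay above TGFb1 replicates 1 to 3, and replicate 4 was above all (-1.33 ± 0.272 with valproate, adjusted p = 0.00212). TOP2A, the topoisomerase that untangles sister DNA, read 10.38, 9.88 and 10.08 in the valproate arrays, 11.60, 11.58 and 11.93 in the acriflavine arrays, 11.21, 11.07 and 11.21 in TGFb1 replicates 1 to 3 with 12.17 in TGFb1 replicate 4, and 11.32, 11.50, 11.25 and 11.58 in the control arrays. Replicate 4 was highest and the valproate arrays lowest, with TGFb1 replicates 1 to 3 below the control arrays (-1.30 ± 0.219 with valproate, adjusted p = 0.000514). RACGAP1, the partner of KIF23 in the central spindle, and the condensin subunits NCAPG and NCAPH changed by -1.05, -1.21 and -1.31.

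**Figure D3:**
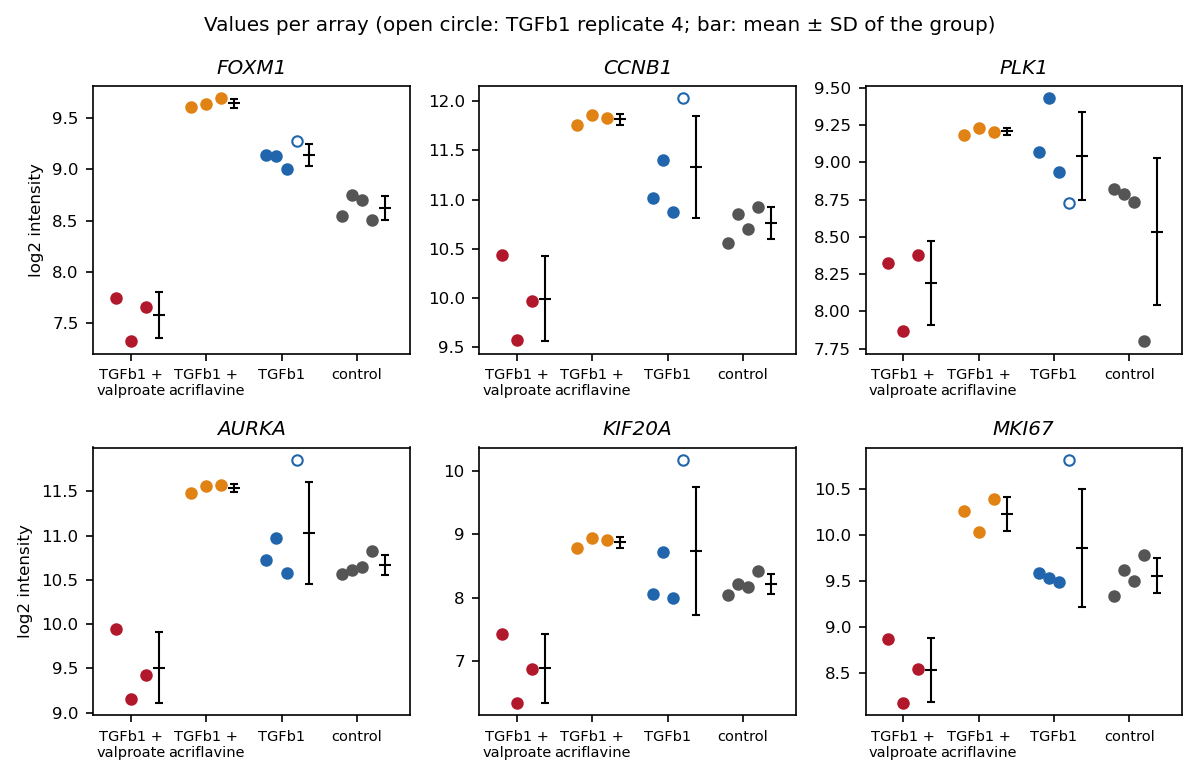
Log2 intensity of FOXM1, CCNB1, PLK1, AURKA, KIF20A and MKI67 in each array, 1 panel per gene, with the groups along the horizontal axis. Filled points are arrays, the open circle is TGFb1 replicate 4, and the bar gives the group mean ± SD (n = 3 for both inhibitor groups, n = 4 for TGFb1 and control). Valproate arrays are lowest in all panels except that of PLK1, where control replicate 4 lies below them, and the open circle lies above the acriflavine arrays in CCNB1, AURKA, KIF20A and MKI67.

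Other probe sets of the same genes were compared for valproate against TGFb1. The 47 genes had 114 probe sets, and of the 67 not used above, 47 were as bright as the tested genes. All of these 47 were lower with valproate, and 45 of them passed. Of the 20 dimmer ones, 19 were lower. The median change with valproate was -1.20 in the 27 genes whose promoter holds CCAAT and a 6-base motif. It was -1.34 in the 13 other genes that have a promoter and a value, a difference that was not tested. Apart from KIF2C and CENPE, those 13 genes hold either CCAAT or a 6-base motif, so this does not compare genes with and without motifs.

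Against control cells, the fall with TGFb1 and valproate was nearly as wide. Of 47 genes 42 fell and 0 rose, against 19.8% and 16.9% of all genes, and the median change was -1.03. All 42 were also among the 45 that fell against TGFb1 alone. The largest falls were in CDCA8 (-1.52 ± 0.134, adjusted p = 1.44e-06), CCNB2 (-1.48 ± 0.0910, adjusted p = 5.23e-08) and NUF2 (-1.43 ± 0.143, adjusted p = 4.46e-06), whose valproate and control arrays did not overlap. The genes that did not pass were PLK1 (-0.34), INCENP (-0.39), CENPE (-0.72), ASPM (-0.95) and KIF14 (-0.61), the last a kinesin of cytokinesis. When TGFb1 replicate 4, which enters this comparison only through the estimate of the spread, was left out, 46 genes fell, against 25.4% of all genes, and PLK1 was the exception. Without both replicates 4 all 47 fell, against 27.3% of all genes, and PLK1 changed by -0.59 (adjusted p = 0.00249).

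With acriflavine few of the genes changed. Against TGFb1 alone 5 of 47 rose (24.5% of all genes did), 1 fell (19.1% of all genes did) and 41 did not pass, and the median change was 0.18. The rises were in OIP5 (0.94 ± 0.174, adjusted p = 0.000679), ECT2 (0.84 ± 0.212, adjusted p = 0.00562), CDCA5 (0.62 ± 0.145, adjusted p = 0.00346), RACGAP1 (0.53 ± 0.153, adjusted p = 0.0128) and FOXM1 (0.51 ± 0.106, adjusted p = 0.00158). For OIP5, ECT2, CDCA5 and FOXM1 every acriflavine array lay above every TGFb1 array, and for RACGAP1 the arrays overlapped. The other probe sets of RACGAP1, both bright enough to be tested, changed by 0.13 and 0.06 with acriflavine. CCNB2 fell slightly, by 0.28 (adjusted p = 0.0237).

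The number of rises with acriflavine depended on TGFb1 replicate 4. Without it 24 genes rose, against 29.4% of all genes, 1 fell, against 22.2%, and the median change was 0.34. The added 19 genes included BUB1 (0.87 ± 0.151, adjusted p = 0.000288), AURKA (0.78 ± 0.159, adjusted p = 0.000982), CCNB1 (0.72 ± 0.182, adjusted p = 0.00454) and MKI67 (0.69 ± 0.156, adjusted p = 0.0021). With replicate 4 their changes were 0.60, 0.50, 0.48 and 0.37, none of which passed. In 26 of 47 genes every acriflavine array was above all of TGFb1 replicates 1 to 3, against 34.6% of all genes, yet in 34 every acriflavine array was below replicate 4, against 42.2% of all genes. The part of replicate 4 in the result was not tested beyond leaving it out.

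Without replicate 4, changes with acriflavine ranged widely within and between roles. Of the kinetochore subunits, NUF2 changed by -0.02 ± 0.131 (adjusted p = 0.903) and SPC24 by -0.03 ± 0.163 (adjusted p = 0.907). KIF11 was lower, at -0.23 ± 0.117, and did not pass (adjusted p = 0.115). OIP5 rose by 1.13 ± 0.114 and ECT2 by 1.07 ± 0.142 (adjusted p = 2.83e-06 and 2.94e-05). NUF2 and SPC24 did not pass either.

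Against control cells, 20 genes rose with TGFb1 and acriflavine and 0 fell, against 26.1% and 21.6% of all genes, and the median change was 0.38. OIP5 (1.28 ± 0.174, adjusted p = 5.29e-05), CCNB1 (1.05 ± 0.239, adjusted p = 0.00253) and FOXM1 (1.02 ± 0.106, adjusted p = 5.61e-06) rose most. Without TGFb1 replicate 4 in the fit 29 rose, against 30.6% of all genes, and 1, KIF11, fell (-0.37), against 25.6%.

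The inhibitors were compared directly, on the same cytokine background. The mean was higher with acriflavine than with valproate in all 47 genes. The difference passed in 46, against 28.3% of all genes. The median difference was 1.46, or 2.76-fold, against 0.04 over all genes. The largest differences were in OIP5 (2.60 ± 0.186, adjusted p = 1.28e-07), CDCA5 (2.09 ± 0.155, adjusted p = 1.69e-07) and FOXM1 (2.07 ± 0.113, adjusted p = 1.73e-08), and the smallest in KIF11 (0.59 ± 0.197, adjusted p = 0.0225). CENPE (0.64 ± 0.327, adjusted p = 0.119) did not pass, and it did when TGFb1 replicate 4 was left out of the fit. The doses differ, at 2.5 µM for acriflavine and 2 mM for valproate, and each was given at 1 dose and 1 time.

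**Figure D4:**
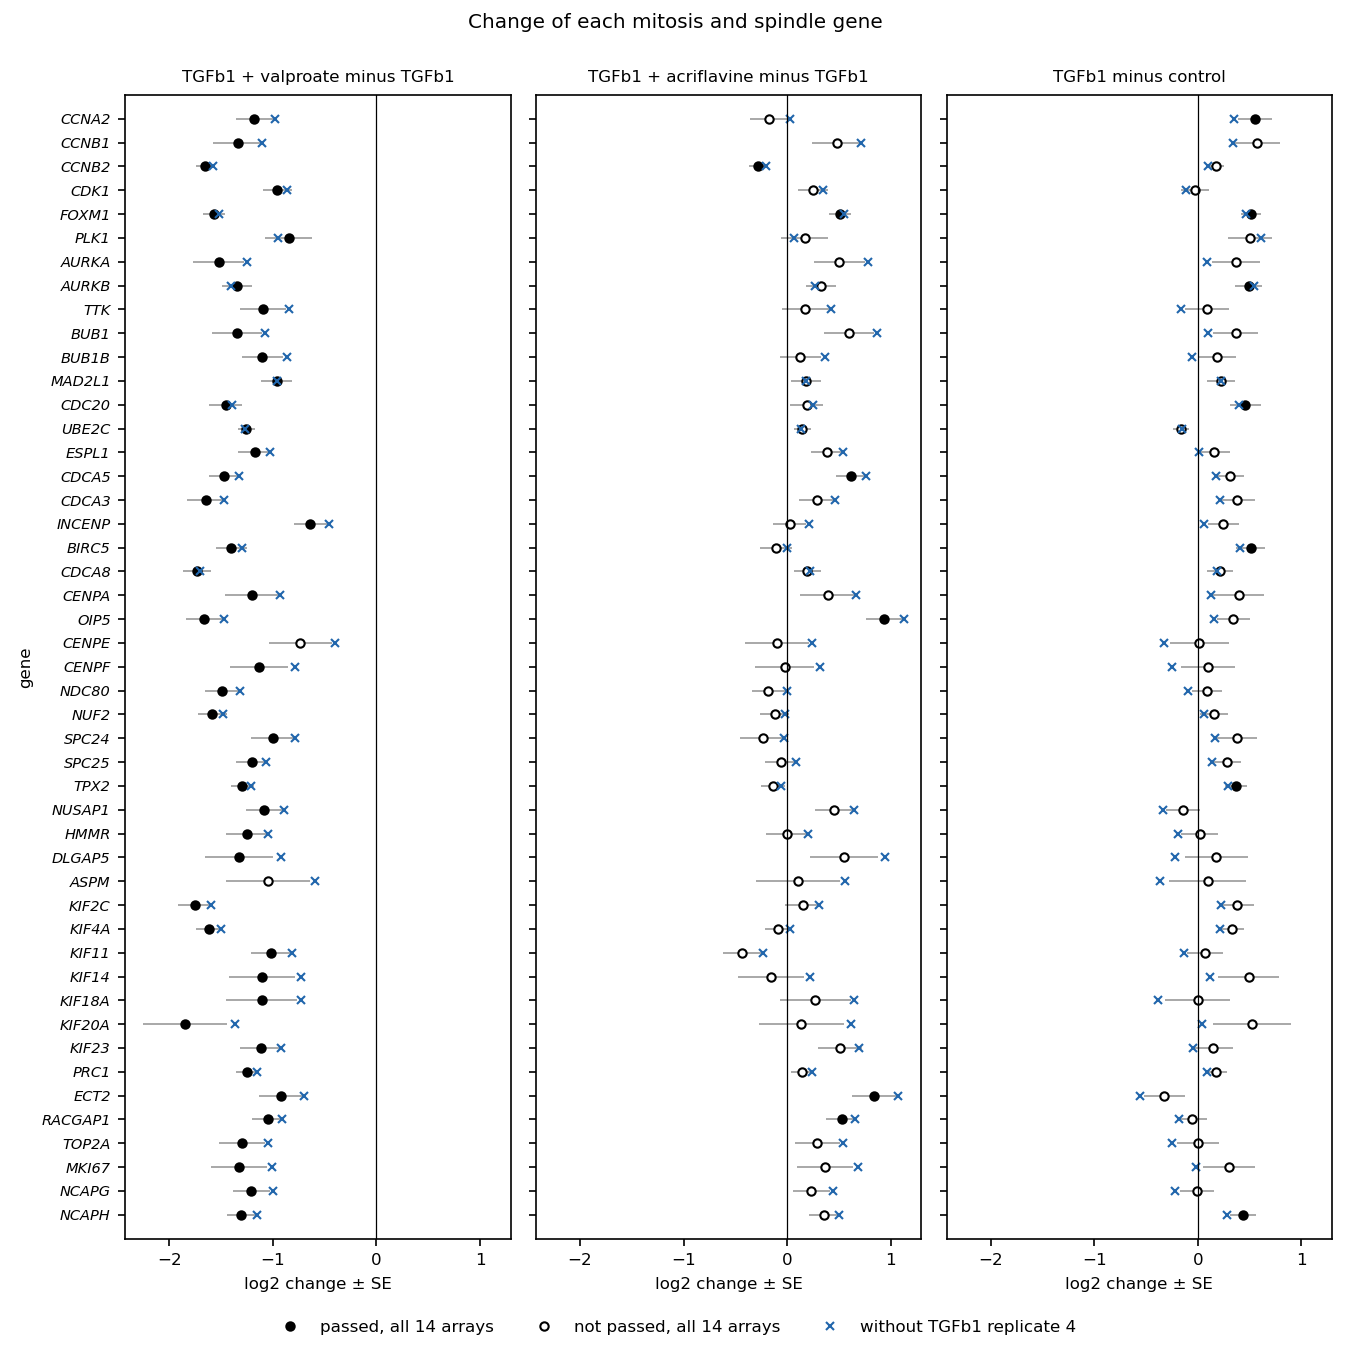
Log2 change ± SE of each of the 47 genes, 1 row per gene, for TGFb1 with valproate minus TGFb1 (left), TGFb1 with acriflavine minus TGFb1 (middle) and TGFb1 minus control (right). Filled points passed an adjusted p of 0.05 over all 14 arrays, open points did not, and crosses are the changes without TGFb1 replicate 4. All points of the left panel lie below 0, with 45 filled. The middle panel has 6 filled points and its crosses lie mostly to the right of the points, and the right panel has 7 filled points, all above 0.

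TGFb1 alone changed few of these genes. Against control 7 of 47 rose and 0 fell, at a background of 8.39% and 9.97% of all genes, and the median change was 0.22. CCNA2 (0.56 ± 0.164, adjusted p = 0.0316), FOXM1 (0.52 ± 0.0981, adjusted p = 0.00223), BIRC5 (0.51 ± 0.139, adjusted p = 0.0206) and AURKB (0.49 ± 0.133, adjusted p = 0.0205) rose, as did CDC20 (0.46), NCAPH (0.44) and TPX2 (0.37). In these 7 and in KIF4A, 8 of 47 genes, every TGFb1 array lay above every control array, against 8.44% of all genes. In 1 gene, UBE2C, every TGFb1 array lay below every control array, and its change (-0.17) did not pass. With the replicate number as a block, 12 genes rose, against 13.2% of all genes, and 0 fell, against 15.8%, and the 7 were among them.

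Here too the picture differed between replicate 4 and the others. Without TGFb1 replicate 4, 7 genes rose, against 12.1% of all genes, and 2 fell, against 16.8%. CCNA2 and NCAPH still rose, by smaller amounts (0.35 and 0.29). CDC20 no longer passed (0.40, adjusted p = 0.0678), PLK1 rose (0.61 ± 0.216, adjusted p = 0.0487; 0.36 when control replicate 4 was left out too, which did not pass), and ECT2 (-0.55 ± 0.132, adjusted p = 0.00724) and NUSAP1 (-0.34 ± 0.112, adjusted p = 0.0377) fell. In replicates 1 to 3, the difference between TGFb1 and control had a median of 0.10 and 29 of 47 genes were higher with TGFb1, against 49.7% of all genes. In replicates 4, the single TGFb1 array minus the single control array had a median of 0.71, and 46 of 47 genes were higher, against 50.8% of all genes. The exception was UBE2C. A difference between 2 single arrays has no replicate check.

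**Figure D5:**
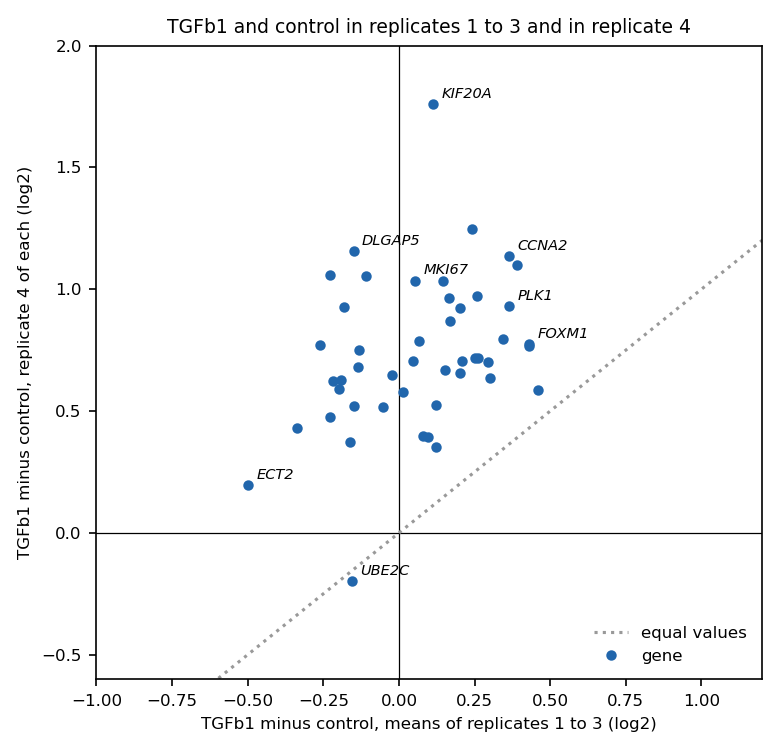
TGFb1 minus control for each of the 47 genes (points), from the means of replicates 1 to 3 (horizontal) and from replicate 4 of each group (vertical), in log2 units, with a dotted line where both are equal. The medians are 0.10 across and 0.71 upward. Most points lie above the line, KIF20A the furthest up, while FOXM1 and PLK1 are above 0 on both axes.

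Other genes expressed in G2 and M phases also fell with valproate in most cases. The list holds 69 tested genes that are not among the 47 (centromere proteins, spindle and cytokinesis genes and mitotic regulators). With valproate 62 fell, against 16.2% of all genes, 1 rose, against 15.1%, and 6 did not pass, with a median of -1.07. The counts were again 62 and 1 without TGFb1 replicate 4, against 20.1% and 20.4% of all genes, and the median was -0.85. GTSE1, a G2-phase microtubule protein, changed by -1.64 ± 0.168 (adjusted p = 9.69e-06), CIT, citron kinase of the cleavage furrow, by -1.62 ± 0.133 (adjusted p = 1.67e-06) and PLK4, the kinase of centriole duplication, by -1.61 ± 0.292 (adjusted p = 0.000878). NSL1, a kinetochore protein, rose by 0.48. With acriflavine 21 rose and 6 fell against TGFb1 alone, against 24.5% and 19.1% of all genes, with a median of 0.19. When TGFb1 replicate 4 was left out the counts were 33 and 4, against 29.4% and 22.2%. FAM83D, a spindle protein, changed by 1.54 ± 0.320 (adjusted p = 0.0015), CDKN3, a phosphatase of cyclin-dependent kinases, by 1.26 ± 0.197 (adjusted p = 0.000181) and ANLN, anillin of the contractile ring, by 0.91 ± 0.171 (adjusted p = 0.000757). With TGFb1 against control 7 rose and 0 fell, against 8.39% and 9.97% of all genes, with a median of 0.21. They were 7 and 2 without TGFb1 replicate 4, against 12.1% and 16.8%, with a median of 0.07. TACC3, CENPW and NCAPD3 changed by 0.45, 0.45 and 0.45, and without TGFb1 replicate 4 TACC3 did not pass and NCAPD3 changed by 0.27.

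Genes of the G1/S transition and of DNA replication also fell with valproate. Of 44 tested, 41 fell with valproate, against 16.2% of all genes, and 0 rose, with a median of -0.86. When TGFb1 replicate 4 was left out, 40 fell, against 20.1%, and 0 rose. The largest falls were in TK1 (-1.58 ± 0.0724, adjusted p = 3.15e-08) and TYMS (-1.43 ± 0.0936, adjusted p = 3.76e-07), enzymes of thymidine nucleotide synthesis, and MCM4 (-1.28 ± 0.159, adjusted p = 4.33e-05), a subunit of the replicative helicase. With acriflavine 27 rose and 2 fell against TGFb1 alone, against 24.5% and 19.1% of all genes, with a median of 0.44, and 36 rose and 2 fell without TGFb1 replicate 4, against 29.4% and 22.2%. PRIM1 (0.98 ± 0.146, adjusted p = 0.000116), a primase subunit, CCNE1 (0.96 ± 0.132, adjusted p = 6.12e-05), cyclin E1, and E2F1 (0.89 ± 0.130, adjusted p = 0.000105), a factor that turns on S-phase genes, rose most. With TGFb1 against control 16 rose and 0 fell, against 8.39% and 9.97% of all genes, with a median of 0.26, led by GINS4 (0.71), ORC1 (0.58) and UHRF1 (0.51). Without TGFb1 replicate 4, 13 rose and 1 fell, against 12.1% and 16.8%, and ORC1 changed by 0.37.

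With valproate, regulators of these genes fell more often than all genes did, and rose at about the share of all genes. Of 26 listed, 22 were tested, and with valproate 4 rose, against 15.1% of all genes, 8 fell, against 16.2%, and 10 did not pass. There were 4 rises and 9 falls without TGFb1 replicate 4, against 20.4% and 20.1%. CDKN1A, the inhibitor p21 that blocks cyclin-dependent kinases, read 13.23, 13.15 and 13.28 in the valproate arrays, 12.46, 12.46 and 12.42 in the acriflavine arrays, 12.35, 12.49 and 12.32 in TGFb1 replicates 1 to 3 with 11.64 in TGFb1 replicate 4, and 11.48, 11.46, 11.43 and 11.54 in the control arrays. Valproate arrays were highest and control arrays lowest, without overlap, and TGFb1 replicate 4 was close to the control arrays. CDKN1A rose with valproate (1.02 ± 0.150, adjusted p = 0.000176) and with TGFb1 against control (0.72 ± 0.139, adjusted p = 0.00241), and its change with acriflavine did not pass (0.24 ± 0.150, adjusted p = 0.213, and 0.06 without TGFb1 replicate 4). MYBL2, the B-MYB factor that works with FOXM1, read 8.86, 8.69 and 9.02 in the valproate arrays, 9.96, 10.10 and 9.81 in the acriflavine arrays, 9.87, 10.18 and 9.91 in TGFb1 replicates 1 to 3 with 9.76 in TGFb1 replicate 4, and 9.53, 9.43, 9.44 and 9.32 in the control arrays. It was lowest with valproate (-1.07 ± 0.111, adjusted p = 1.05e-05) and higher with TGFb1 than in control (0.50 ± 0.103, adjusted p = 0.0037). LIN9, a subunit shared by DREAM and the activating MYB complex, fell with valproate (-1.05 ± 0.258, adjusted p = 0.00663) and rose with acriflavine (0.84). CDKN1B, the inhibitor p27, fell with TGFb1 against control (-0.70 ± 0.0953, adjusted p = 0.000162) and did not pass with either inhibitor (-0.15 with valproate, 0.09 with acriflavine). CDKN1C, the inhibitor p57, rose with valproate (1.02) and with acriflavine (1.08 ± 0.199, adjusted p = 0.000625). These changes of LIN9 and CDKN1C include TGFb1 replicate 4, which differed from the mean of TGFb1 replicates 1 to 3 by 1.11 and -0.89.

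The D cyclins, which start the cycle by activating CDK4 and CDK6, went separate ways. CCND2, cyclin D2, read 11.11, 11.74 and 11.34 in the valproate arrays, 6.44, 5.88 and 6.71 in the acriflavine arrays, 10.49, 9.54 and 10.70 in TGFb1 replicates 1 to 3 with 8.21 in TGFb1 replicate 4, and 10.72, 10.05, 10.81 and 9.66 in the control arrays. Acriflavine arrays were far below all others, and TGFb1 replicate 4 was the lowest of the other arrays. All 3 acriflavine arrays were under the brightness limit of 6.89, so the size of the difference is uncertain there. CCND2 fell with acriflavine (-3.39 ± 0.482, adjusted p = 8.11e-05) and rose with valproate (1.66 ± 0.482, adjusted p = 0.0174). Both sizes include TGFb1 replicate 4, which differed by -2.04 from the mean of TGFb1 replicates 1 to 3. CCND3, cyclin D3, was lowest in control arrays and rose with TGFb1 (0.67 ± 0.0967, adjusted p = 0.000275), and further with acriflavine (1.02 ± 0.104, adjusted p = 5.14e-06) and valproate (0.50 ± 0.104, adjusted p = 0.00225). CCND1, cyclin D1, rose with acriflavine (0.37 ± 0.144, adjusted p = 0.0494), which did not pass without TGFb1 replicate 4 (adjusted p = 0.0969), and did not pass with valproate (-0.16) or with TGFb1 against control (0.28). Without TGFb1 replicate 4 its changes were -0.24 with valproate, which did not pass, and 0.37 with TGFb1 against control, which did (adjusted p = 0.0454).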

How the data were processed

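The deposited values are log2 intensities of 49193 probe sets on Affymetrix 3-prime arrays, made by the authors with RMA in the R package affy 1.44.0, per the submitters' processing notes. Which arrays were normalised together is not given in the sources used here. Gene names came from the platform's probe table: 44898 probe sets named 1 gene, 1825 several and 2470 none. A gene identifier check against RefSeq changed 0 symbols.

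Each of 18129 genes was read from its brightest probe set by mean over 14 arrays. The dimmest 40% of genes were left out, which left 10877. Models with 1 mean per group were fitted with limma 3.58.1 (lmFit, eBayes, two-sided) in R 4.3.3 over all arrays, for 6 comparisons, and were tested on simulated data. The comparisons with the same TGFb1 or control arrays share their errors. The samples are called biological replicates per the labels.

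The genes and lists were chosen with earlier results of these data known. Values in every array are given for genes that stand for the roles and for the 3 largest changes per comparison among those that passed. From each further list the changes of the 3 largest and of a few fixed regulators are given, with array values for some.

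The main models used no pairing. Samples with the same replicate number counted as pairs if their deviations from the group means correlated above 0.1 in each replicate. This held for TGFb1 and control (0.387, 0.359, 0.543 and 0.705) and for no other comparison. For TGFb1 against control, counts with the replicate block are therefore given beside the unpaired main values. Computed from replicates 1 to 3 only, the correlations were -0.258, 0.151 and 0.589, so the rule was not met without the replicates 4. Alternatives were other brightness limits, probe set choices, scalings, variance models, 2 groups alone, the replicate block, a batch term for the replicates 4 and each array left out.

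Promoters are RefSeq entries on GRCh38.p14. The first listed start was used for the 4 genes with more than 1. Python 3.11.15, pandas 2.3.3 and matplotlib 3.10.9 were used for tables and figures.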

Additional observations from a re-analysis of the deposited data

Results flagged for a closer look

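In groups of 4 arrays, an array was picked out where its gap to the nearest other array, divided by the range of the group, exceeded Dixon's critical value for 4 arrays. Chance alone picks out about 1 in 20 such groups when they are independent. The sets here share the same arrays and the genes move together, so that rate cannot be set against their count. Of 94 sets of TGFb1 and control values of the genes, 10 were picked out, 7 by TGFb1 replicate 4, 2 by control replicate 4 and 1 by another array.

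TGFb1 replicate 4 was the highest TGFb1 array of CCNA2 (ratio 0.979), MKI67 (0.923), BUB1B (0.890), CENPA (0.885), TOP2A (0.874), NDC80 (0.853) and DLGAP5 (0.849). It was also highest in the mean of the 47 genes (0.961), at 10.67. In control, replicate 4 was the lowest array of PLK1 (0.912), at 7.80, and the highest of SPC24 (0.839), at 8.03. Control replicate 2 was the highest of UBE2C (0.894), by 0.08 log2 units. Control replicate 1 was the lowest in the mean of the 47 genes (0.857), at 9.77.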

How the results depend on the processing

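Of 7050 values of single genes under the alternatives, 6742 kept their direction and their side of the threshold, 126 no longer passed, 182 newly passed and 0 called changes turned sign. The number of genes that changed with valproate was 45 against TGFb1 and 42 against control, and 46 differed between acriflavine and valproate. With each array left out in turn these counts ranged over 42 to 47, 34 to 46 and 42 to 47, and under the other alternatives they stayed within 1.5 times. The count for acriflavine against TGFb1, 6, was 17 with the replicate block, 17 with a batch term for the replicates 4, 25 without both replicates 4 and 25 without TGFb1 replicate 4, and ranged over 4 to 25 with 1 array left out. The count for TGFb1 against control, 7, was 12 with the replicate block, 15 with the batch term and 1 with these 2 groups alone, where fewer arrays estimate the spread. With 1 array left out it ranged over 2 to 11: it was 2 without TGFb1 replicate 2 or control replicate 4, 3 without control replicate 1, 4 without control replicate 2 or 3, and 11 without TGFb1 replicate 3. The count for acriflavine against control, 20, was 32 with the 2 groups alone and 31 without both replicates 4, and ranged over 12 to 30, with 12 without acriflavine replicate 1 and 13 without acriflavine replicate 2. The causes of these differences were not tested. Calls among all genes move with the setting too: rises with acriflavine against TGFb1 were 24.5% of all genes, and 29.4% without TGFb1 replicate 4. For most settings the share of all genes is not given, so these counts do not show whether the 47 genes moved more than others. The block left the calls with valproate in place, with 47 against TGFb1 and 44 against control.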

Other observations

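The spread of the 47 genes within a group differed between groups more than that of all tested genes did. The median SD over the genes was 0.233 in the valproate group (n = 3), 0.0717 in the acriflavine group (n = 3), 0.407 in the TGFb1 group (n = 4) and 0.145 in control (n = 4). Over all tested genes it was 0.0965, 0.0773, 0.210 and 0.134 in the same order of groups. Without replicates 4, the genes had a median SD of 0.202 in TGFb1 and 0.104 in control. In the valproate group the arrays differed in a common direction: replicate 1 was the highest of the 3 in 44 of 47 genes and replicate 2 the lowest in 38. The shares of all genes with these ranks were not computed, so whether this is particular to the 47 genes is not known. The medians of valproate replicates 1, 2 and 3 over all probe sets were 7.213, 7.207 and 7.212. The means of the 47 genes in those arrays were 9.08, 8.65 and 8.81, all below the lowest control mean of 9.77.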
